A study of Mus musculus with 32 samples.

Results

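The cholesterol synthesis genes described here were Hmgcs1, Idi1, Fdps, Fdft1, Sqle, Lss, Cyp51 and Insig1, followed across 32 mouse lymphomas. They were chosen as a list of symbols, and every probe set of the array that was annotated to 1 of these symbols alone was taken. This gave 21 of the 45101 probe sets. For each gene the probe set with the highest mean led, and all 8 leading probe sets passed a filter on dim probe sets, a mean of at least 5.78 on the log2 scale, which left 11228 tested genes in all. Of the 21 probe sets, 14 passed that filter.

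Cholesterol is built from acetyl-CoA through mevalonate. Hmgcs1 makes HMG-CoA, Idi1 isomerises the isoprene unit, Fdps joins isoprene units to farnesyl diphosphate, and Fdft1 joins farnesyl diphosphate to squalene, the first intermediate committed to sterols. Sqle oxidises squalene, Lss closes the ring to lanosterol and Cyp51 removes a methyl group from lanosterol. When sterols are scarce, the transcription factor encoded by Srebf2 is cut loose from the membrane and activates these genes. Insig1 is itself induced in this way, and its protein holds the factor and its escort Scap in the endoplasmic reticulum when sterols are plentiful, which closes a feedback loop. Dividing lymphoid cells need sterols for new membranes and isoprenoids for the lipid anchors of small GTPases.

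All samples carried the Eµ-myc transgene, in which the enhancer of the immunoglobulin heavy chain locus drives Myc in the B lineage. The labels give 1 group, with no control and no treatment, so the values describe differences between tumours. Each tumour had 1 Affymetrix Mouse430_2 array, and the labels do not say which RNA came from tissue and which from dissociated cells, what ages the mice had, or whether 2 tumours share a mouse. The tests treat the 32 tumours as independent, p-values are too small if some are not, and part of the spread may be technical. Of 8 B lineage identity genes 7 were tested, and all their values lay between 6.24 and 12.76 on the log2 scale, above the filter in every tumour. Array medians ranged from 5.72 to 5.80, array pairs correlated at 0.938 to 0.993, and 0 pairs were identical. The salivary gland gene Bpifa2 split the arrays into 11 tumours at 12.97 to 14.26 and 21 at 3.59 to 5.19, and the main counts and correlations are also given without those 11.

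Promoters are shown for 4 of the genes because sterol-responsive promoters are known to pair a sterol regulatory element with binding sites of the factor NF-Y. RefSeq promoter sequences (GRCm38.p6, 250 bases before to 50 bases after the start of the transcript) were found for 5 of the 8 genes, namely Hmgcs1, Idi1, Lss, Cyp51 and Insig1. Capitals mark matches on either strand to TCACNCCAC (a sterol regulatory element), CCAAT (the NF-Y motif, ATTGG when it lies on the other strand) and CACGTG (the E-box that Myc and Max can bind). The windows are chr13:119690101-119690400 on the plus strand for Hmgcs1, chr13:8885356-8885655 on the plus strand for Idi1, chr5:4104648-4104947 on the minus strand for Cyp51, and chr5:28071162-28071461 on the plus strand for Insig1.
Hmgcs1: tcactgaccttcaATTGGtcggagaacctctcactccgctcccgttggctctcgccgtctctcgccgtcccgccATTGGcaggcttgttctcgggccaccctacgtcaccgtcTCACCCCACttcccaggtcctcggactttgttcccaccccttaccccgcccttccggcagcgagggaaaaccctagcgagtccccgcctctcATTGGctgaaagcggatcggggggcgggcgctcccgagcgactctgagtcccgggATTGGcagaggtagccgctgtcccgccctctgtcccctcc
Idi1: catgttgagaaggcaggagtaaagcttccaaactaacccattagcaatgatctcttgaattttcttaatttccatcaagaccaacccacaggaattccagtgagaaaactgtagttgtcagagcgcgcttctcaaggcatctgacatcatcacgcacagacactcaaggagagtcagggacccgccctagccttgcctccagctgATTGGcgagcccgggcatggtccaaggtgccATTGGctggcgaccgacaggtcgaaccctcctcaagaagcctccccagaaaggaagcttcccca
Cyp51: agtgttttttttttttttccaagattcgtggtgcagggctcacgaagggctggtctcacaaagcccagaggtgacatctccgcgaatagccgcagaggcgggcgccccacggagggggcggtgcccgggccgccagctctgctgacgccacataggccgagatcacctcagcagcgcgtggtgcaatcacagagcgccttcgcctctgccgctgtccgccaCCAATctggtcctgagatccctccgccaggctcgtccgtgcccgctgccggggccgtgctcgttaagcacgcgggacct
Insig1: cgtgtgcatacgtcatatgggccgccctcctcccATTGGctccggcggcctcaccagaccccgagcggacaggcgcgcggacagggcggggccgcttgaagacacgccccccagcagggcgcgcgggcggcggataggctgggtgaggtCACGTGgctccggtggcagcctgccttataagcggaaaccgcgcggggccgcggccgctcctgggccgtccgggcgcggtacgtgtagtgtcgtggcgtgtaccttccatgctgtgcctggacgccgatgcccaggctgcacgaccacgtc

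All 5 promoters held CCAAT, as did 37.4% of the 32851 promoters of the same length in the table. Hmgcs1 held 4 copies, with the nearest upstream copy starting 45 bases before the transcript start, and Idi1 held 2. TCACNCCAC was found in Hmgcs1 alone, 137 bases before the start, against 1.24% of all promoters. Other forms of the sterol regulatory element were not searched for, so a promoter without a match may still hold such an element. CACGTG was found in Insig1 alone, 101 bases before the start, against 7.15% of all promoters. No overlap between motif matches occurred in these 4 windows. These are matches of letters in a fixed window, and binding was not measured.

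The genes of the early, isoprenoid steps varied between tumours by 2.85-fold to 4.54-fold from lowest to highest, and by 2.44-fold to 3.27-fold without tumours 25 and 30. Hmgcs1 (probe set 1433444_at, chromosome 13, 119690351 to 119708260 in GRCm38.p6) had a lowest value of 9.06 in tumour 30, a median of 9.78 and a highest value of 10.57 in tumour 15 on the log2 scale, with a mean of 9.76 ± 0.37 (SD, n = 32). Idi1 (1451122_at, chromosome 13, 8885606 to 8892396) ran from 7.89 in tumour 30 through a median of 9.52 to 10.07 in tumour 29, with a mean of 9.44 ± 0.48 (SD, n = 32). Its values were skewed to the low side, since tumours 30 and 25 (8.43) lay under every other tumour. Fdps (1423418_at, chromosome 3, 89093588 to 89101967) ran from 7.32 in tumour 30 through 8.55 to 9.39 in tumour 22, with a mean of 8.54 ± 0.56 (SD, n = 32), a 4.20-fold range. Tumours 30 and 25 were also the lowest for Hmgcs1 and Fdps.

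Among the genes of the squalene and sterol steps, Sqle and Cyp51 had the widest ranges and Lss the narrowest. Fdft1 (1438322_x_at, chromosome 14, 63145150 to 63181687) ran from 6.78 in tumour 30 through 7.92 to 8.59 in tumour 9, with a mean of 7.84 ± 0.44 (SD, n = 32), a 3.50-fold range. Sqle (1415993_at, chromosome 15, 59315092 to 59331193), which encodes the first oxygen-requiring enzyme of the sterol branch, ran from 7.76 in tumour 30 through 9.39 to 10.22 in tumour 23, with a mean of 9.31 ± 0.64 (SD, n = 32), a 5.51-fold range. The high end of Sqle was flat, with tumours 23 and 31 both at 10.22. Lss (1420013_s_at, chromosome 10, 76531565 to 76557139) ran from 6.72 in tumour 25 through 7.52 to 8.08 in tumour 29, with a mean of 7.54 ± 0.29 (SD, n = 32), a 2.56-fold range. Cyp51 (1450646_at, chromosome 5, 4080674 to 4104697) ran from 6.31 in tumour 25 through 7.78 to 8.64 in tumour 23, with a mean of 7.74 ± 0.51 (SD, n = 32), a 5.04-fold range. Its low end was set by tumours 25 and 30 (6.48), with the next tumour at 7.09. The ranges without tumours 25 and 30 were 3.30-fold for Sqle, 2.94-fold for Cyp51, 2.93-fold for Fdft1 and 1.99-fold for Lss.

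Insig1 (1454671_at, chromosome 5, 28071412 to 28078662), the feedback regulator, had its lowest values in other tumours. It ran from 8.04 in tumour 24 through 8.68 to 9.34 in tumour 6, with a mean of 8.65 ± 0.36 (SD, n = 32), a 2.46-fold range. Tumour 30 stood at 8.51, ranked 13 from the bottom, and tumour 25 at 8.26, ranked 5 from the bottom.

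**Figure D1:**
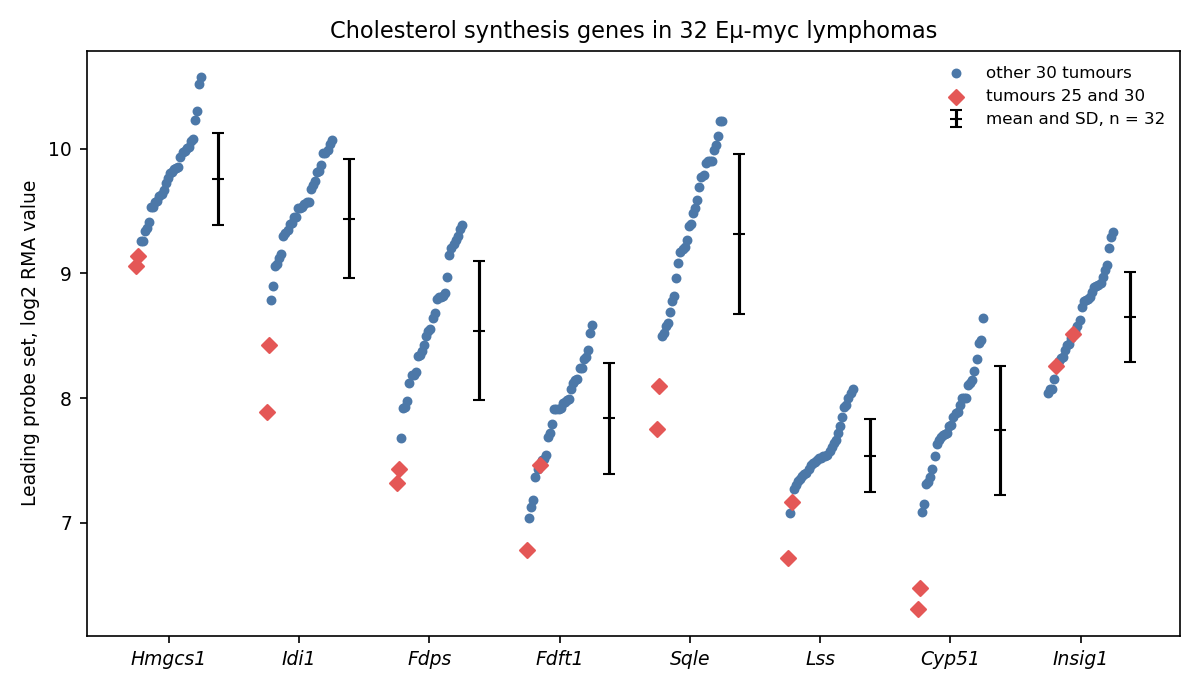
Log2 RMA value of the leading probe set (vertical axis) for each of the 8 genes (horizontal axis) in 32 tumours, sorted within each gene, with the mean and SD beside the points and tumours 25 and 30 as diamonds. Tumours 25 and 30 sit at the bottom for most enzymes, for example at 6.31 and 6.48 for Cyp51, and within the spread of the others for Insig1.

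Most of the genes varied more than the median gene of the array. The SD of Sqle lay at percentile 88.8 of all genes, that of Fdps at 85.0, Cyp51 at 82.7, Idi1 at 80.0, Fdft1 at 77.1, Hmgcs1 at 68.5 and Insig1 at 67.1, while Lss lay at 52.3. The median SD of the 8 was 0.46, against 0.28 for all genes. None of the 8 had a gap that split the tumours into separate clusters of at least 3.

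Probe sets of the same gene that passed the filter followed each other, least closely for Cyp51. The other 3 for Hmgcs1 correlated with the leading one at 0.94, 0.99 and 0.93 over the 32 tumours, the other one for Idi1 at 0.95, for Fdft1 at 0.96 and for Cyp51 at 0.71. The Fdft1 leader is of a type (x_at) whose probes can match other transcripts, and its partner 1448130_at, which is not, gave the r of 0.96. For Lss the other probe sets were dim, with means of 5.39 and 5.40, and followed the leader at 0.62 and 0.31. The 2 dim probe sets of Fdft1 (means of 5.34 and 5.32) did not follow it, with r of -0.10 and 0.03. Sqle and Insig1 had 1 probe set each, so their values rest on it alone.

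The same tumours were low or high for several of the genes. In tumours 10, 25, 28 and 30 all 8 genes lay below their medians, and in tumours 6, 11, 15, 22, 27, 29 and 32 all 8 lay above. As the mean over the 8 genes of the standardised level, in SD units, tumours 30 (-2.04) and 25 (-1.90) were the lowest, followed by tumour 28 at -1.04, tumour 10 at -0.99 and tumour 5 at -0.97. The highest were tumour 15 at 1.27, tumour 6 at 1.13, tumour 22 at 1.11 and tumour 29 at 1.10. Tumours 25 and 30 thus stood apart from a continuous series of the other 30, while the top had no such gap. With 1 array for each tumour, neighbours in this order cannot be told apart.

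Tumours 25 and 30 also stood out in markers of other cells. They had the highest stroma scores of the 32 tumours, 2.34 and 1.97, where a score is the mean standardised level of the tested marker genes and the other tumours had at most 0.80. Tumour 30 had the highest myeloid score (2.16), and tumour 25 the fifth highest (0.78). Tumour 30 also had the lowest proliferation (-1.68) and Myc target (-1.72) scores and a low B lineage identity score (-0.67), while tumour 25 had the highest B lineage identity (1.14) and precursor B cell (1.19) scores. Both carried the salivary transcript Bpifa2, at 13.89 and 14.01. In such bulk samples, fewer cells of a type and less RNA per cell cannot be told apart. Ranges, correlations and counts without them are given where they move.

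**Figure D2:**
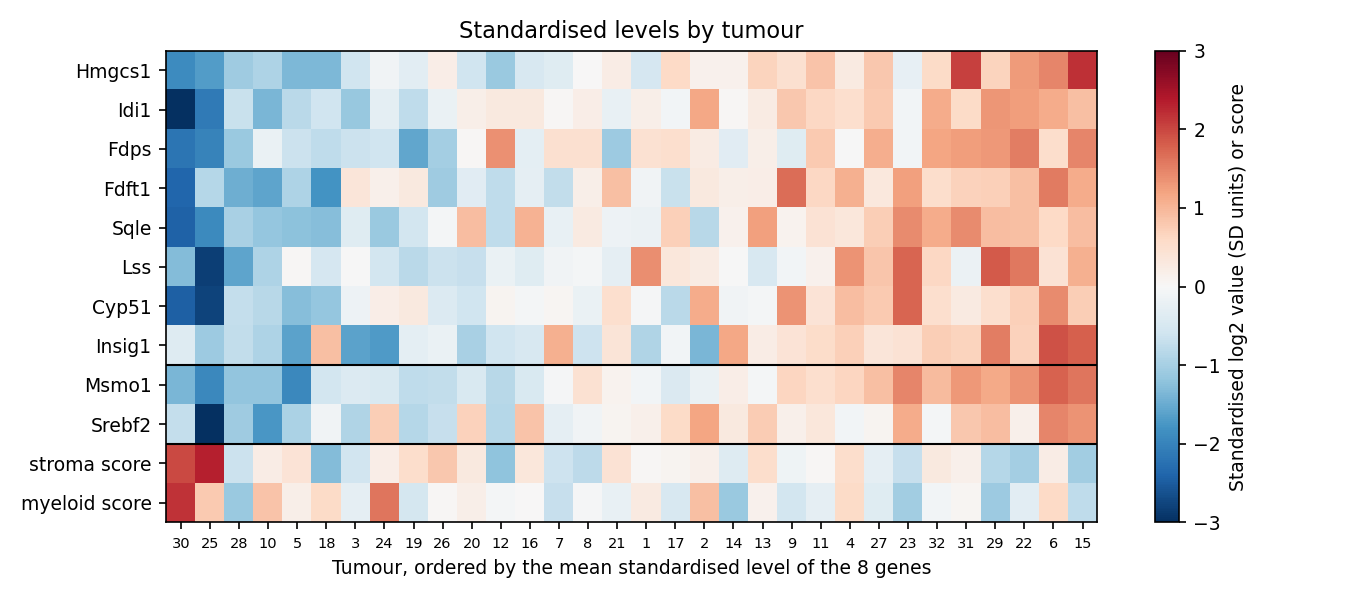
Standardised log2 level (colour, in SD units from -3 to 3) of the 8 genes, of Msmo1 and of Srebf2, with the stroma and myeloid scores, in 32 tumours ordered by the mean level of the 8 genes (horizontal axis). Tumours 30 and 25 at the left, with mean levels of -2.04 and -1.90, have stroma scores of 1.97 and 2.34, and Insig1 is the least aligned of the 8 genes.

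The 8 genes rose and fell together across tumours. All 28 pairs had a positive Pearson correlation over the 32 tumours, from 0.45 to 0.84 with a median of 0.68, and the median Spearman rho was 0.64. The median r over all 63028378 pairs of tested genes was 0.01. To set single pairs against all genes, the level of each gene in turn was used as the axis of a limma fit over the other 11227 genes, and 35 of the 56 ordered pairs passed an adjusted p of 0.05. The shares of all genes called along these axes are given below, and ran from 0.0178% to 3.65%. Of the 28 pairs, 16 passed in both directions, 3 in one direction and 9 in neither. Both directions of a pair have the same r, but the adjusted p also depends on how many other genes follow the axis. Insig1 passed along Sqle (r = 0.53, 410 genes called) but not along Hmgcs1 (r = 0.63, 7 genes called). Counts along different axes therefore do not rank the strength of the relations.

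By their leading probe sets, Fdft1, which makes squalene, and Cyp51, which demethylates lanosterol, had the closest relation. Their r was 0.84 and rho 0.89, both with a permutation p of 1e-05, the smallest that 100000 resamples can give, and limma gave an adjusted p of 8.98e-06 for Fdft1 along the Cyp51 level. The relation was as close without tumours 25 and 30 (r = 0.87). Idi1 and Fdps, neighbours in the isoprenoid steps, followed with r = 0.82 (rho 0.81, permutation p = 1e-05), and 0.74 without those tumours. Idi1 and Cyp51 had r = 0.81 (rho 0.73, permutation p = 1e-05), and 0.65 without them. Both Cyp51 relations rest on its leading probe set, whose r with the other passing one (1422533_at, mean 7.47) was lower, 0.71. The r of Fdft1 and Idi1 with that other probe set alone is not given here.

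Consecutive enzymes were not always the closest. Fdps and Fdft1, which make and use farnesyl diphosphate, had the lowest r of the 21 enzyme pairs, 0.48 (rho 0.47, permutation p = 0.00510), passed limma in neither direction, and had r = 0.33 without tumours 25 and 30. The median r of the enzyme pairs was 0.70, and 34 of their 42 ordered pairs passed.

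The 7 pairs with Insig1 had a median r of 0.47, and 1 of 14 ordered pairs passed, Insig1 along the Sqle level (adjusted p = 0.0476). Along the Insig1 level limma called 0 of the 7 enzymes, with a lowest adjusted p of 0.138 for Hmgcs1, although all 7 had an unadjusted permutation p under 0.05. The highest r of Insig1 was 0.63 with Hmgcs1 (rho 0.63, permutation p = 1.00e-04), and it was 0.63 without tumours 25 and 30 as well. Whether pairs with Insig1 differ from pairs of enzymes was not tested.

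**Figure D3:**
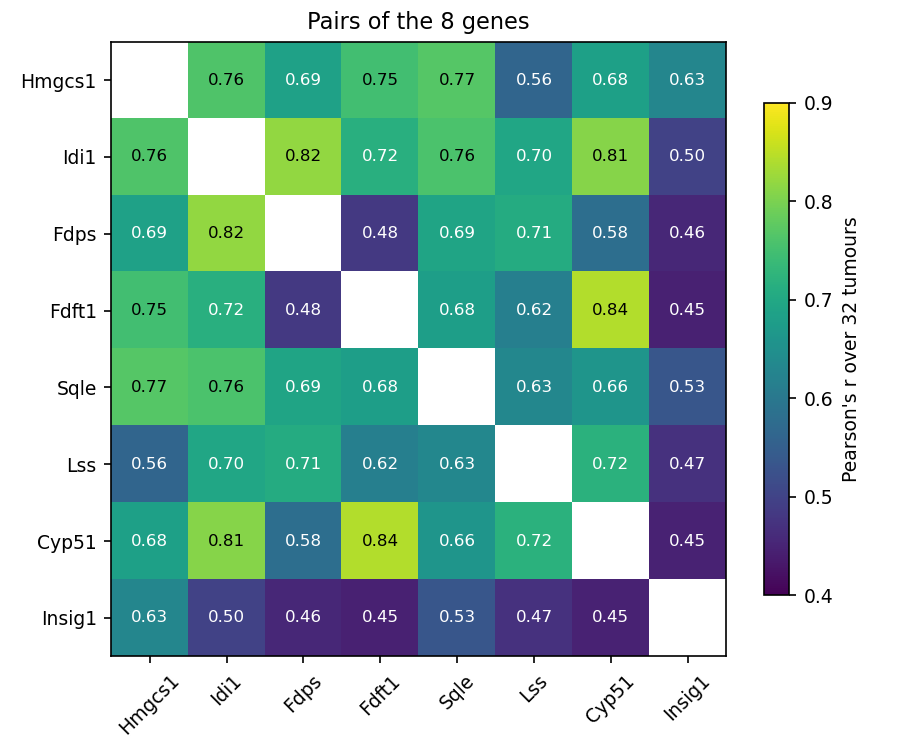
Pearson's r over 32 tumours (colour and printed value) for each pair of the 8 genes. The values run from 0.45 to 0.84, with the highest for Fdft1 and Cyp51, and the row of Insig1 holds the lowest, 0.45 with Fdft1 and with Cyp51.

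These counts rest in part on few tumours. Without tumours 25 and 30 all 28 correlations stayed positive, from 0.33 to 0.87 with a median of 0.58, but 9 of 56 ordered pairs passed; without tumour 30 alone 22 passed. Without the 11 tumours with Bpifa2 all 28 correlations were positive over the remaining 21 tumours, from 0.30 to 0.85 with a median of 0.60, and 3 ordered pairs passed. In those 21 tumours r was 0.85 for Fdft1 and Cyp51, 0.76 for Idi1 and Fdps, and 0.39 for Fdps and Fdft1. With the averaged scores of T cells, myeloid cells and stroma as a covariate, the median r was 0.62 and 24 pairs passed.

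Genes beyond the 8 were called along their levels to very different extents. Along Hmgcs1 limma called 7 of 11227 genes (0.0623%), all rising, namely Sqle, Idi1, Fdps, Fdft1 and Cyp51, and outside the 8 the sterol enzyme Msmo1 (adjusted p = 5.40e-06) and Srebf2 (adjusted p = 0.0354). Along Fdft1 it called 6 (0.0534%), namely Hmgcs1, Idi1, Sqle, Cyp51, Msmo1 and Mvd. Every gene called along these axes thus belongs to sterol synthesis or its regulation. The others of the 8 called along Hmgcs1 numbered 3 without tumour 25 or tumour 30, and along Fdft1 2 without tumour 30. Without both tumours limma called 4 genes along Hmgcs1, 3 along Fdft1, 0 along Lss and 2 along Cyp51.

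Lss and Cyp51 gave slightly longer lists. Along Lss limma called 12 genes (0.107%, and 0.0623% rising), among them 3 of the 7 others, Idi1, Fdps and Cyp51. The genes outside the 8 that rose with Lss were Msmo1, Mvd, Srebf2 and Faap20, and those that fell were Wwp1, Tecpr1, Steap4, Adamts15 and the insulin receptor gene Insr. Along Cyp51 it called 20 genes (0.178%, and 0.0891% rising), among them 5 of the 7 others. Outside the 8, Msmo1, Mvd, Srebf2, Lsm12 and Erg28, which encodes a scaffold of sterol demethylation, rose with Cyp51. The 10 genes that fell were Mylip, Adamts15, Adam22, Arrdc3, Apod, Arsk, Ctsk, Aebp1, Pcdh19 and Serpinb6a, of which several are known from matrix and connective tissue. Mylip, which encodes a ubiquitin ligase induced by liver X receptors, had r = -0.71 and an adjusted p of 0.00720. Without tumour 25, 0 of the 7 others passed along Lss and 2 along Cyp51.

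The axes of Idi1, Fdps and Sqle called many more genes. Along Idi1 it was 143 genes (1.27%, and 0.454% rising) with 6 of the 7 others, along Fdps 374 (3.33%, and 1.75% rising) with 5, and along Sqle 410 (3.65%, and 2.15% rising) with all 7. Without tumour 30 alone 2 of the 7 others passed along Sqle. Without tumours 25 and 30 these lists shrank to 4, 6 and 1 genes, with 2, 1 and 0 of the others. Without the tumours with Bpifa2 limma called 0 genes along Hmgcs1, Idi1, Fdps and Lss, 1 along Sqle, 2 along Cyp51 and 3 along Fdft1, but 61 along Insig1, with 1 of the 7 others. Along Insig1 limma called 2 genes (0.0178%), Hsd17b7 and Msmo1, each with an adjusted p of 0.00392. Hsd17b7, a sterol reductase that acts with Msmo1 in removing methyl groups, had r = 0.75 with Insig1.

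Of the 12 other sterol synthesis enzymes that were tested, Msmo1 followed the 8 genes most closely. Msmo1, the methylsterol monooxygenase that acts after Cyp51, ran from 6.91 in tumour 25 through 7.85 to 8.77 in tumour 6, with a mean of 7.88 ± 0.50 (SD, n = 32). Its r with the mean level of the 8 genes was 0.93 (rho 0.95), the highest of all 11220 other genes, and 0.94 without tumours 25 and 30. It passed limma along the level of each of the 8 genes, with r from 0.70 (Fdps) to 0.85 (Hmgcs1), and did so whichever tumour was left out. Without tumours 25 and 30 it passed along 6 of the 8 levels, and without the tumours with Bpifa2 along 4.

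Other enzymes followed less closely. Mvd, which decarboxylates mevalonate diphosphate, passed along 5 levels (Idi1, Fdps, Fdft1, Lss and Cyp51) with an r of 0.67 to the mean level, but along 0 without tumour 30 or without the tumours with Bpifa2. Nsdhl, the sterol dehydrogenase of the demethylation steps, had r = 0.70 (0.74 without tumours 25 and 30) and passed along 2 levels, and along 0 without tumour 30 or without the tumours with Bpifa2. Mvk (0.53), Hsd17b7 (0.50), Pmvk (0.46), Dhcr7 (0.45) and Sc5d (0.42) had lower r. Of these, Pmvk passed along 1 level, Fdps, and Hsd17b7 along 1 level, Insig1. Pmvk lies on chromosome 3 like Fdps, and the part of that chromosome in the call was not tested. Ebp (0.16), Lbr (0.04) and Ggps1 (-0.03) passed along none. Ggps1 turns farnesyl diphosphate to geranylgeranyl diphosphate, away from sterols, and Lbr and Tm7sf2 encode alternative sterol reductases.

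Tm7sf2 had the lowest r, -0.42 (-0.19 without tumours 25 and 30), with its highest level in tumour 30 (7.34). In all, 10 of the 12 enzymes had a positive r to the mean level, with a median of 0.45. Over the 11220 other genes the median was 0.04 and the 5th and 95th percentiles were -0.36 and 0.36.

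Of 7 tested genes of the SREBP system, Srebf2 passed limma along 6 of the 8 levels (all but Fdft1 and Insig1) and the other 6 along none. The count for Srebf2 was 2 without tumour 25 and 0 without both tumours 25 and 30 or without the tumours with Bpifa2. Srebf2 ran from 7.52 in tumour 25 through 8.87 to 9.39 in tumour 6, with a mean of 8.83 ± 0.39 (SD, n = 32). Its r with the mean level of the 8 genes was 0.74, ranked second of all other genes, and 0.69 without tumours 25 and 30. Srebf1, which encodes the factor better known for fatty acid synthesis, had r = -0.08. The genes for the escort Scap (0.11), for Insig2 (0.04), for the proteases Mbtps1 (-0.24) and Mbtps2 (-0.00) and for the ubiquitin ligase Rnf139 (-0.08) also lay inside the 5th to 95th percentile of all genes.

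Along the Srebf2 level limma called 4 of the 8 genes among 7 of 11227 genes (0.0623%, and 0.0445% rising). Idi1 (r = 0.70, rho 0.67, permutation p = 6.00e-05, adjusted p = 0.0205), Cyp51 (r = 0.69, rho 0.60, permutation p = 4.00e-05, adjusted p = 0.0205), Sqle (r = 0.68, rho 0.68, permutation p = 3.00e-05, adjusted p = 0.0255) and Hmgcs1 (r = 0.67, rho 0.65, permutation p = 5.00e-05, adjusted p = 0.0365) rose with it. Lss (r = 0.65, adjusted p = 0.0829), Fdft1 (0.57, 0.422), Fdps (0.55, 0.423) and Insig1 (0.46, 0.591) did not pass, although all 8 had an unadjusted permutation p under 0.05. The other genes called were Msmo1, which rose, and Adamts15 and Kctd12b, which fell. Sqle and Srebf2 both lie on chromosome 15, and values for that chromosome are given below.

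These calls depended on single tumours. Limma called 0 of the 8 without tumour 25, without tumour 10 or without both tumours 25 and 30, and 2 without tumour 5, 6 or 15. Without the 2 tumours farthest from the median Srebf2 level, tumours 25 and 10, r was 0.58 for Idi1, 0.53 for Cyp51, 0.60 for Sqle and 0.63 for Hmgcs1. Along the Srebf1 level limma called 0 of the 8, with 0 at an unadjusted permutation p under 0.05, and 0 of all genes.

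**Figure D4:**
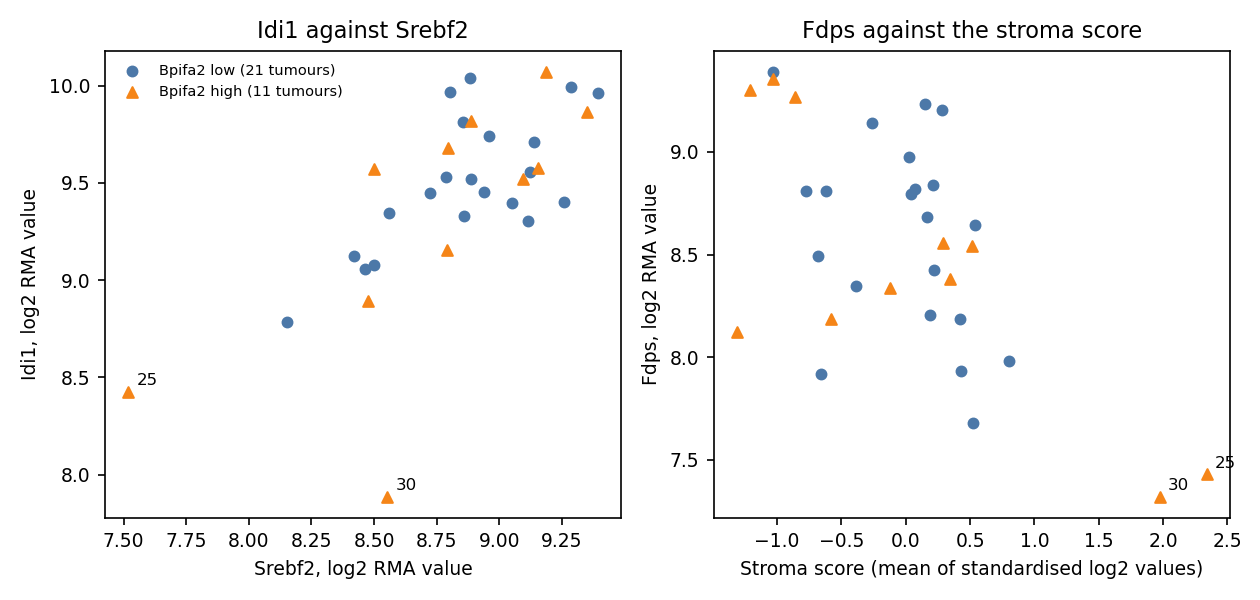
Left, log2 level of Idi1 against that of Srebf2; right, log2 level of Fdps against the stroma score, with 1 point for each of 32 tumours, triangles for the 11 with Bpifa2 and circles for the other 21. Idi1 rises with Srebf2 (r = 0.70) with tumour 30 below the trend, and tumours 25 and 30 lie alone at stroma scores of 2.34 and 1.97.

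Genes of cholesterol uptake and transport had r on both sides of 0. Of 7 tested, Stard4, a sterol carrier, had r = 0.62 to the mean level and rose along Sqle and Idi1, and Tmem97 (0.51) rose along Sqle. Npc1, which exports cholesterol from lysosomes, had r = -0.46 and fell along Sqle. Without tumours 25 and 30 these r were 0.44, 0.14 and -0.19. Along the myeloid score limma called the same 3 genes the other way, with Npc1 rising and Stard4 and Tmem97 falling, and the part of myeloid cells was not tested. The other 4 passed along no level and had r from -0.26 to 0.02.

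Of 5 tested genes of sterol efflux and storage, 4 had a negative r, with a median of -0.48 (-0.19 without tumours 25 and 30). Abca1, the cholesterol exporter induced by sterol-sensing liver X receptors, had r = -0.62 and fell along Sqle, and Apoe (-0.41), the apolipoprotein made by macrophages among other cells, fell along Sqle too. Mylip (-0.52) fell along Cyp51. Abcg1 (-0.48) and Nr1h3 (0.08) passed along none. Abca1 and Apoe were highest in tumour 30, at 11.81 and 12.86, and Mylip in tumour 25, at 11.28. Without those 2 tumours the r were -0.36 for Abca1, -0.06 for Apoe, -0.19 for Mylip and -0.41 for Abcg1. Abca1, Abcg1, Nr1h3 and Apoe also rose along the myeloid score, and Abca1 and Mylip along the stroma score, which is highest in tumour 25. The part of these cells in the relations was not tested.

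Fatty acid synthesis is the other branch controlled by SREBP factors. Of its 12 tested genes 0 passed along any of the 8 levels, and their r to the mean level had a median of 0.04, from -0.29 for Scd1 to 0.35 for Fads1, with Fasn at 0.19 and Acly at 0.08. Along the fatty acid synthesis score limma called 0 of the 8 genes (0.143% of all genes were called), with 0 at an unadjusted permutation p under 0.05 and a lowest adjusted p of 0.583. The r ranged from -0.13 for Lss to 0.27 for Sqle. Along the same score 2 of the 3 tested fat cell markers, Adipoq and Retn, rose, and the 3 had a median r of 0.77 with it, so the score also followed fat cell markers, whose part was not tested.

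Genes that use isoprenoids had a median r of 0.21 over 11 tested (0.08 without tumours 25 and 30). Rabggtb, a subunit of the enzyme that attaches geranylgeranyl groups to Rab proteins, had the highest (0.43, and 0.13 without tumours 25 and 30) and rose along Fdps, and Pdss2, of ubiquinone synthesis, rose along Sqle. Rabggtb lies on chromosome 3 like Fdps, and the part of that chromosome in the call was not tested. The other 9 genes passed along none.

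**Figure D5:**
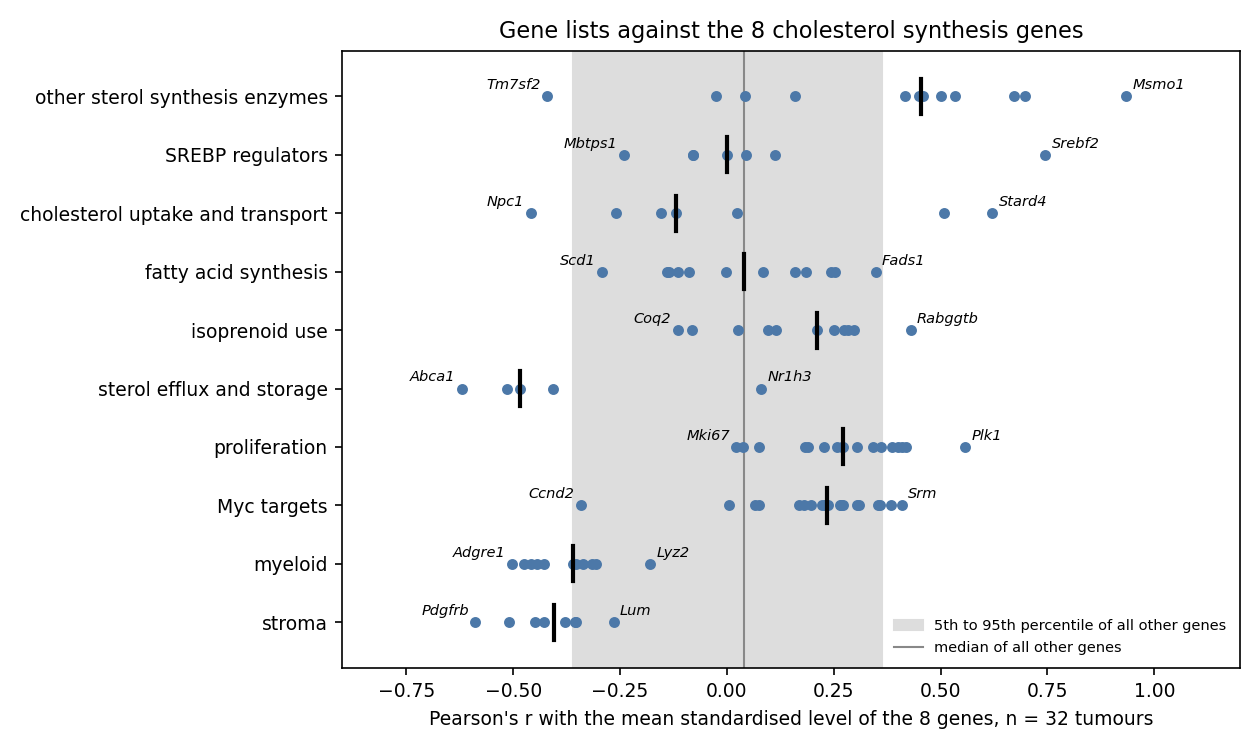
Pearson's r over 32 tumours between each tested gene of 10 lists and the mean standardised level of the 8 genes (horizontal axis), with list medians as bars and the 5th to 95th percentile of all other genes (-0.36 to 0.36) shaded. Msmo1 (0.93) and Srebf2 (0.74) lie farthest to the right, fatty acid genes lie around 0.04, and efflux, myeloid and stroma genes lie mostly to the left; without tumours 25 and 30 the stroma median moves from -0.40 to -0.06.

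Few of the genes passed along measures of Myc activity and proliferation. Along the Myc target score, built from 20 genes, limma called Sqle alone (r = 0.48, rho 0.37, permutation p = 0.00507, adjusted p = 0.0179), 1 of 8, while 33.2% of all genes were called and 20.2% rose. Without tumours 30 and 24, the farthest from the median score, r was 0.27, and without tumour 25 or 30 alone 0 of 8 passed. Along the proliferation score, built from 17 genes, Sqle (r = 0.64, rho 0.51, permutation p = 1.40e-04, adjusted p = 9.21e-04) and Fdps (r = 0.45, rho 0.30, permutation p = 0.0102, adjusted p = 0.0332) rose, 2 of 8, while 28.7% of all genes were called and 18.1% rose. Without tumours 30 and 24 these r were 0.50 and 0.29, and 1 of 8 passed without tumour 25, 30 or 31. The share of the 8 genes called was below or near that of all genes on both axes. All 8 had a positive r with both scores. An unadjusted permutation p under 0.05 was reached by 5 of 8 along the proliferation score and 1 of 8 along the Myc target score. By rho it was reached along proliferation by Sqle (permutation p = 0.00326) and Lss (0.0467) alone.

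The Myc transcript itself and B cell stage called none. Along the Myc level limma called 0 of 8 (20.1% of all genes called), along the mature B cell score 0 (10.4%), and along the precursor B cell score 0 (2.34%), each with 0 of 8 at an unadjusted permutation p under 0.05. The r of the 8 genes lay between -0.26 and 0.33 for Myc, between -0.28 and 0.28 for the mature score and between -0.33 and 0.17 for the precursor score.

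Markers of other cells moved against several of the genes. All 8 stroma genes had a negative r to the mean level (median -0.40, from -0.59 for Pdgfrb to -0.27 for Lum), and stroma scores ran from -1.31 to 2.34. The median without tumours 25 and 30 was -0.06, 7 of 8 were negative, and the range was -0.28 to 0.02. Along the stroma score Fdps (r = -0.61, rho -0.51, permutation p = 2.00e-04, adjusted p = 0.00559), Lss (r = -0.55, rho -0.44, permutation p = 0.00169, adjusted p = 0.0262), Idi1 (r = -0.55, rho -0.34, permutation p = 0.00214, adjusted p = 0.0235) and Cyp51 (r = -0.50, rho -0.24, permutation p = 0.00438, adjusted p = 0.0489) fell, 4 of 8, while 5.5% of all genes were called and 1.34% fell. The r without tumours 25 and 30 were -0.38, -0.27, -0.12 and -0.03 and 0 passed. With either tumour left out alone 1 passed, and without tumour 22 it was 2.

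All 11 tested myeloid genes also had a negative r (median -0.36), with scores from -1.11 to 2.16. All 11 were still negative without tumours 25 and 30, from -0.31 to -0.03, with a median of -0.20. Along the myeloid score Sqle (r = -0.56, rho -0.41, permutation p = 8.90e-04, adjusted p = 0.00709) and Idi1 (r = -0.46, rho -0.23, permutation p = 0.0101, adjusted p = 0.0382) fell, 2 of 8, while 20.5% of all genes were called and 9.75% fell. The share of the 8 genes called was near the share of all genes called along this score, and above the share that fell. All 8 had a negative r with this score, from -0.56 to -0.35, and an unadjusted permutation p under 0.05. By rho that held for Sqle (permutation p = 0.0210) and Insig1 (0.0112) alone. The count of the 8 called was 0 without tumour 30, 1 without tumour 10, 25 or 29, 4 without tumour 4 or 6, and 6 without tumour 28. Without tumours 30 and 24 r was -0.37 for Sqle and -0.19 for Idi1.

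Other admixture measures gave less. Along the T cell score, built from 5 of 11 markers, Insig1 alone fell (r = -0.45, rho -0.44, permutation p = 0.00800, adjusted p = 0.0396), while 23% of all genes were called and 12.5% fell. The r was -0.22 without tumours 24 and 2, which have the highest T cell scores, and the call was lost without tumour 2, 7, 11, 14, 24, 29, 31 or 32. The share of the 8 genes called along this score was below that of all genes called, and near the share that fell. The 7 salivary genes had r of -0.24 to -0.17 to the mean level, and of -0.01 to 0.06 without tumours 25 and 30, with 6 of 7 positive, and the mean level ran from -2.04 to 1.27 (median -0.21) in the 11 tumours with Bpifa2 and from -1.04 to 1.13 (median 0.07) in the other 21, so these overlapped. Along the 3' minus 5' difference of control probe sets, a measure of RNA integrity that ran from 0.26 to 0.96, limma called 0 of 8 (1.16% of all genes). Fdps had r = -0.52 there (permutation p = 0.00200, adjusted p = 0.0854) and rho -0.61. By rho, Idi1 (-0.46, permutation p = 0.00855), Hmgcs1 (-0.44, 0.0128) and Sqle (-0.38, 0.0329) also had an unadjusted p under 0.05. Without tumours 9 and 19, the farthest from the median, r was -0.58 for Fdps, -0.47 for Hmgcs1, -0.47 for Idi1 and -0.32 for Sqle. The part of these measures in the results was not tested beyond the values without single tumours and with covariates.

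Fdps and Sqle lie on chromosomes whose median expression was shifted in some tumours. In 9 tumours the median level of chromosome 3 genes lay 0.17 to 0.27 above the gene means, and in the other 23 it lay below them. Fdps ranged from 8.12 to 9.39 (median 9.14) in the 9 and from 7.32 to 9.27 (median 8.38) in the 23, which overlapped, and along the chromosome 3 level its adjusted p was 0.150 (1.28% of all genes called). Of the 374 genes called along Fdps, 61 lay on chromosome 3, 16.3% against 4.80% of all genes tested. Within the 23 tumours r between Fdps and the chromosome 3 level was -0.30 (rho -0.34, permutation p = 0.161).

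For chromosome 15, 5 tumours (13, 16, 17, 20 and 31) were shifted up by 0.22 to 0.30. Sqle ranged from 9.78 to 10.22 (median 9.99) in these and from 7.76 to 10.22 (median 9.21) in the other 27, and it was called along the chromosome 15 level (adjusted p = 0.0424, 3.53% of all genes called). Within the 27 tumours r was 0.28 (rho 0.24, permutation p = 0.157). Of the 410 genes called along Sqle, 65 lay on chromosome 15, 15.9% against 4.09% of all genes tested. Srebf2 lies on chromosome 15 as well. In the 5 shifted tumours Srebf2 stood at 9.05 (tumour 17) to 9.15 (tumour 16), against a median of 8.87 over all tumours. The part of the chromosome in the relation of Sqle to Srebf2 was not tested. The other 6 genes were not called by limma along the level of their own chromosome, and 0 had an unadjusted permutation p under 0.05 there. The share of all genes called was 0% for chromosome 13 (Hmgcs1 and Idi1), 0.883% for 14 (Fdft1), 0.0375% for 10 (Lss) and 4.64% for 5 (Cyp51 and Insig1).

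The genes most like the 8 by r to their mean level, over 32 tumours, were Msmo1 (0.93), Srebf2 (0.74), Nsdhl (0.70), Erg28 (0.68), Mvd (0.67), 4930572G02Rik (0.63), Foxred1 (0.62), Stard4 (0.62), Faap20 (0.61) and Aacs (0.60). They were followed by Acsl3 (0.60), Bid (0.58), Prss2 (0.58), Thtpa (0.57) and Zfp94 (0.57). Aacs activates acetoacetate for lipid synthesis, and Acsl3 activates long-chain fatty acids. Of the 15, Msmo1, Nsdhl, Srebf2, Mvd and Prss2 kept an r above 0.55 without tumours 25 and 30, and Zfp94 had the lowest, 0.35. At the other end lay Adamts15 (-0.67), Cygb (-0.66), Bri3 (-0.66), Dpep1 (-0.66), Pcdh19 (-0.65), Pttg1ip (-0.64), Pid1 (-0.64), Aebp1 (-0.64), Wwp1 (-0.62) and Abca1 (-0.62). Without tumours 25 and 30 these lay between -0.54 (Bri3) and -0.34 (Aebp1).

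Taken gene by gene, Msmo1 was the nearest gene outside the 8 for Hmgcs1 (r = 0.85), Fdft1 (0.81), Cyp51 (0.81), Sqle (0.78) and Idi1 (0.76). For Fdps it was Lamtor2 (0.76) before Msmo1 (0.70) and Pmvk (0.69), which lies on chromosome 3 like Fdps. The part of that chromosome in the relations of Fdps to its nearest genes was not tested. For Lss the nearest was Faap20 (0.76) before Msmo1 (0.75), and for Insig1 it was Hsd17b7 (0.75) before Msmo1 (0.74). Acsl3 came after Msmo1 for Sqle (0.75), and Erg28 after Msmo1 for Idi1 (0.73).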

How the data were processed

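Total RNA of 32 Eµ-myc lymphomas was turned into biotin-labelled cRNA for Mouse430_2 arrays (Affymetrix), per the labels' protocols. The authors deposited log2 values per probe set, made with RMA and affy, per the submitters' processing notes, with versions not given in the sources used here. RMA equalises the arrays' distributions, which hides a shift shared by most genes. All columns mapped to a tumour.

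Of 45101 probe sets, 34958 had 1 symbol in the platform annotation, 932 several and 9211 none; only those with 1 were named. Entrez identifiers of 34754 were found in RefSeq GRCm38.p6, which changed 0 symbols. A gene's probe set with the highest mean was used if that mean reached the median (5.78).

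The 8 genes, the gene lists and the tests were chosen with earlier results of these data known, so no list is independent evidence. A list score is the mean standardised log2 value of its tested genes. Axes were scaled to an SD of 1 and fitted with limma 3.58.1 in R 4.3.3 (lmFit, eBayes), leaving axis genes out, with Benjamini-Hochberg adjustment over all genes and a threshold of 0.05. Pearson's r and Spearman's rho had two-sided permutation tests of 100000 resamples, and r was repeated without the 2 tumours farthest on the axis. A gap of at least 25% of the range with at least 3 tumours on each side made a measure clustered. A chromosome's level is the median deviation of its genes from their means, without the 8 genes. Matplotlib 3.10.9, pandas 2.3.3, scipy 1.17.1 and numpy 2.4.6 under Python 3.11.15 were used, and the steps were tested on simulated data.

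Named genes were the 8, the tested genes of the sterol and lipid lists, the 15 highest and 10 lowest by r to the mean level, and the 5 nearest of each gene; other genes named were chosen after their values were seen. Alternatives were the mean of probe sets, no filter or one at the 75th percentile, 2 other scalings, each tumour left out, tumour sets left out, 2 covariates, ranks and robust eBayes. Omission of tumours 25 and 30, and all alternatives for the stroma and myeloid scores, were added after seeing the data.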

Additional observations from a re-analysis of the deposited data

How the results depend on the processing

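Counts of the 8 genes called were sensitive to which tumours were used, while the correlations between the genes moved less. The median r of the 28 pairs stayed between 0.58 and 0.70 in all settings, and 0.63 to 0.70 with single tumours left out. The 35 ordered pairs became 23 on ranks, 9 without tumours 25 and 30, 3 without the tumours with Bpifa2, and 22 to 36 with single tumours left out. Along Srebf2, 4 genes became 2 with the 3' minus 5' covariate, 0 on ranks, 0 without tumours 25 and 30, 0 without the tumours with Bpifa2, and 0 to 5 leaving out single tumours. Along the Myc target score, 1 became 2 with the mean of probe sets, 0 with arrays shifted by reference genes, 0 with the T cell, myeloid and stroma covariate, 0 in each of the 3 sets with several tumours left out, and 0 to 1 leaving out single tumours. Along the proliferation score, 2 became 1 with shifted arrays, either covariate, ranks, or without tumours 25 and 30, 0 without the tumours with Bpifa2, and 1 to 3 leaving out single tumours. Along the T cell score, 1 became 0 with no filter, shifted arrays, quantile normalization again, ranks, or without the 2 tumours with the highest score, and 0 to 1 leaving out single tumours; the filter at the 75th percentile was not run there, since fewer than 3 T cell genes were left. Along the stroma score, 4 became 1 on ranks, 0 with the T cell, myeloid and stroma covariate, 0 without tumours 25 and 30 or without those with Bpifa2, and 1 to 4 leaving out single tumours. Along the myeloid score, 2 became 1 with no filter, 0 on ranks, with that covariate, without tumours 25 and 30 or without those with Bpifa2, and 0 to 6 leaving out single tumours. The mature B cell and fatty acid scores gave 0 in every setting. The covariate holds the stroma and myeloid scores themselves, so on those axes a loss of calls with it is largely fixed in advance. The causes of the other changes were not tested. Probe brightness limits Lss, which did not pass the 75th percentile filter. No paired analysis was possible because the labels give 1 group.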
